A study of Mus musculus with 8 samples.

Results

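Cish and Socs1 to Socs7 encode the suppressors of cytokine signalling, and their N6-methyladenosine (m6A) peaks in mouse primary T cells are described here. The members were taken by name: every line of the 2 deposited peak lists whose gene name is Cish or one of Socs1 to Socs7. The 8 genes held 32 of the 29586 peaks of the control list and 29 of the 23368 peaks of the PTC list. All 8 were among the 11390 genes of the control list, and 7 were among the 10859 genes of the PTC list.

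In the study, RNA fragments carrying m6A were immunoprecipitated with an antibody and sequenced beside input RNA. Control primary T cells and primary T cells treated with PTC for 24 h each gave 2 immunoprecipitated and 2 input samples, 8 samples in all. Both conditions were cultured in the same serum-supplemented medium, and the total RNA was taken with Trizol. The labels do not say what PTC is, which strain and age the mice had, or whether the 2 samples of a group stem from different animals or cultures. The values exist as 1 list per condition and not per sample, so no difference between the lists below has a replicate check or a test.

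SOCS proteins are induced by cytokines and switch the same signal off again. Each carries an SH2 domain, which docks on phosphorylated tyrosines of receptors or Jak kinases, and a SOCS box, which recruits the elongin and cullin subunits of a ubiquitin ligase. In T cells CIS, SOCS1 and SOCS3 restrain the signals of interleukins and interferons that pass through Jak kinases and Stat transcription factors. m6A is written on messenger RNA mainly in the sequence context DRACH, where D stands for A, G or T, R for A or G and H for A, C or T. It lies often near stop codons and in long exons and marks many transcripts for decay. Socs1, Socs3 and Cish are known from earlier work as m6A-marked transcripts whose decay in naive T cells depends on the methyltransferase Mettl3.

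The labelled cell type was compared with marker genes. Peaks were listed for 14 of 15 T cell markers in control and for all 15 in PTC (Trbc2 in PTC only). The best of the T cell markers reached a −log10 FDR (larger is stronger) of 271 in control, and in PTC the best FDR was below what the list can print. Both lists held peaks of 5 of 6 B cell markers (Cd79a in neither), and the best of them had an FDR below what the list can print in control, stronger than the best T cell marker there, and reached 272 in PTC. Both lists held peaks of 5 of 8 myeloid markers (Cd68, Adgre1 and Itgam in neither), at best 31.1 in control and 112 in PTC. Of 4 natural killer cell markers each list held 2, at best 4.69 and 5.65, and of 3 erythroid markers the PTC list alone held 2, at best 3.46. None of 3 hepatocyte markers had a peak. Whether RNA of other blood cells contributed to the Socs peaks was not tested. In the authors' deposited table of summary values, 36.07% of control reads and 33.03% of PTC reads lay in peaks. That summary counts 19420 control and 15855 PTC peaks, fewer than the 29586 and 23368 listed, and states no filter. Which peaks the percentages refer to is therefore not known.

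The strongest form of the m6A consensus, GGACT, was searched on the sense strand of the principal transcript of each gene. The 8 transcripts held 30 such sites, 16 in coding sequence, 12 in 3' UTRs and 2 in 5' UTRs. Of the 30, 20 lay in a control peak, 15 in a PTC peak, 14 in peaks of both lists and 9 in neither. The sites of Cish, Socs2, Socs3, Socs4 and Socs5 that lay in peaks of both lists are shown with 25 nt of transcript each, since these are candidate positions that both conditions share. The other 3 sites in peaks of both lists, in Socs6, are not shown. Coordinates are read as GRCm38, the sequence is that of the GENCODE M21 transcript 5' to 3', and capitals mark GGACT.
Cish coding, chr9:107300536-107300560, plus strand: gcttccggctGGACTctaactgctt
Cish coding, chr9:107300827-107300851, plus strand: tggccgacgtGGACTgcctacccct
Cish 3' UTR, chr9:107300954-107300978, plus strand: gtccccagctGGACTtggggttctg
Socs2 coding, chr10:95412799-95412823, minus strand: ccacggaatgGGACTgttcacctgt
Socs2 coding, chr10:95412698-95412722, minus strand: tacgatctggGGACTgcctttacca
Socs3 coding, chr11:117967614-117967638, minus strand: acggccacctGGACTcctatgagaa
Socs3 3' UTR, chr11:117967253-117967277, minus strand: tttgacaagcGGACTctcccctccc
Socs4 coding, chr14:47289818-47289842, plus strand: ccattgagttGGACTtagatcattc
Socs5 coding, chr17:87133825-87133849, plus strand: cttacagctgGGACTgagcccttcc
Socs5 coding, chr17:87134841-87134865, plus strand: tcttgctcagGGACTctgcacagga
Socs5 coding, chr17:87134856-87134880, plus strand: ctgcacaggaGGACTacctcttctc

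In Cish, Socs2 and Socs3 the last coding GGACT site lay close to the stop codon, 58, 54 and 70 nt before the last coding base. In Socs4 the only coding site lay 1087 nt before it, and in Socs5 the 3 sites lay 1404, 388 and 373 nt before it. Socs1 had no coding GGACT site, and its single site, in the 3' UTR 756 nt after the last coding base, lay in a control peak and in no PTC peak. A sequence match marks a place where the letters occur and is not a measured methylated base.

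The family was present almost whole in both lists. Of the 8 members 7 had peaks in both lists, 1 (Socs7) in the control list only and none in the PTC list only. Of all 12413 genes with a peak in either list, 79.2% were in both, 12.5% in the control list only and 8.24% in the PTC list only, so these counts do not set the family apart. The members carried a mean of 4.00 control and 3.62 PTC peaks per gene (Socs7 counted as 0), against 2.60 and 2.15 over the genes of each list.

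**Figure D1:**
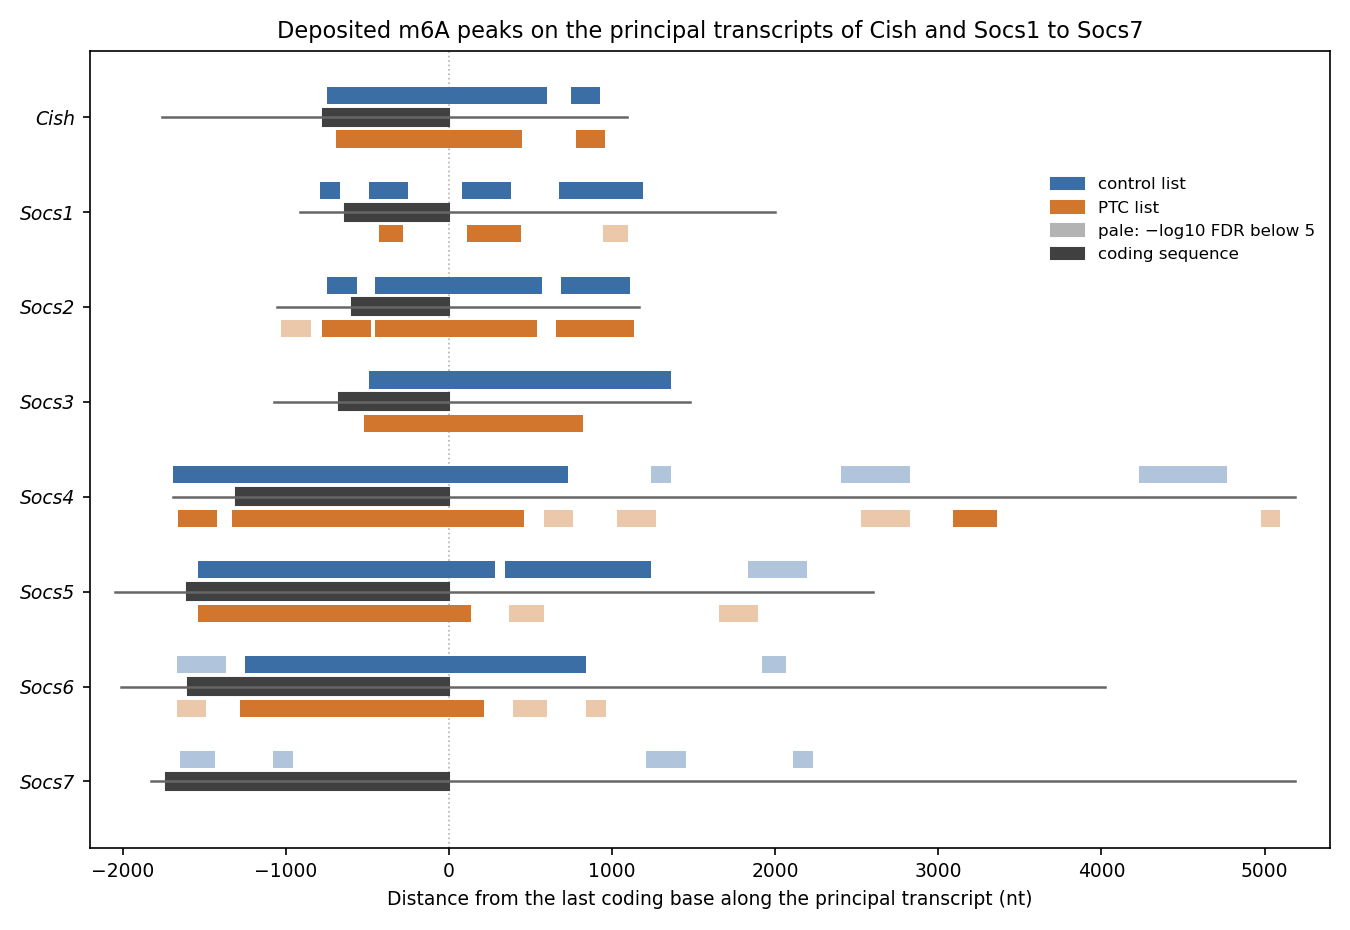
Peaks of the control list (blue) and the PTC list (orange) along the principal transcript of each gene, drawn to scale by distance in nt from the last coding base, with coding sequence as a dark bar, untranslated regions as a line and peaks below a −log10 FDR of 5 pale. Peaks or parts of peaks outside the exons of the principal transcript (in Cish and Socs2) are not drawn. In all but Socs1 and Socs7 a peak of each list runs across the end of the coding sequence.

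Cish (ENSMUSG00000032578), which encodes the cytokine-induced SH2 protein CIS that competes with Stat5 at receptors, held the strongest peak of the family in both lists. The fold enrichment and the false discovery rate (FDR) of each peak are the authors' own values, and the FDR is given as −log10 FDR. The control peak (chr9:107299565-107301494, plus strand, 1590 nt in 3 blocks) had a fold enrichment of 3.29 at a −log10 FDR of 158. The PTC peak (chr9:107299982-107301344, 1140 nt in 2 blocks) had 3.56 and 213. All of the PTC peak lay within the control peak, and a separate PTC peak of 241 nt (fold 3.10, −log10 FDR 16.1) lay on the upstream part of the same control peak, outside the exons of the principal transcript. Among the strongest peaks of all genes of its list the Cish peak stood at percentile 98.6 by FDR and 27.9 by fold in the control list, and at 98.4 and 33.5 in the PTC list. It was thus a peak of very small FDR and modest fold in both lists.

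A further Cish peak in the 3' UTR was weak in fold in both lists, 1.37 in control (181 nt, −log10 FDR 10.7) and 1.28 in PTC (181 nt, 6.77), and these overlapped over 151 nt. The control list held 3 more Cish peaks in noncoding exons upstream, with folds of 1.65 to 1.95, and the PTC list 1 more downstream of the principal transcript, at 3.39. None of these 4 had a partner in the other list. An antisense gene, Gm17041, overlaps the 3' part of Cish on the minus strand. Its own peak was listed at the same place in both lists (chr9:107300380-107301838, 479 nt). That peak had a fold of 1.77 at a −log10 FDR of 56.6 in control, and 2.01 and 126 in PTC. The main Cish peak shared 321 nt with the exons of Gm17041 in both lists. Of the weak 3' UTR peak of Cish, 144 of 181 nt in control and 158 of 181 nt in PTC lay on those exons. The labels do not say whether the libraries kept the strand, so reads of Cish and Gm17041 may not have been told apart.

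Socs1 (ENSMUSG00000038037), which encodes an inhibitor that blocks the kinase activity of Jak1, Jak2 and Tyk2, held 4 control and 3 PTC peaks of 121 to 511 nt, with folds of 1.40 to 4.04. The strongest control peak lay wholly in coding sequence (chr16:10784488-10784727, minus strand, 240 nt), with a fold of 1.98 at a −log10 FDR of 79.7. The PTC peak inside it (chr16:10784518-10784667, 150 nt) had 1.40 and 11.2. This coding peak of Socs1 is shown whole, since it is the strongest control peak of the gene and holds no GGACT. Its 240 nt are 68.8% G or C, and capitals mark the 3 GGAC cores, none of them followed by T. The second core is followed by G and so is not a DRACH match. The peak holds 3 DRACH matches, and not all of them are marked.
Socs1 control peak, chr16:10784488-10784727, minus strand: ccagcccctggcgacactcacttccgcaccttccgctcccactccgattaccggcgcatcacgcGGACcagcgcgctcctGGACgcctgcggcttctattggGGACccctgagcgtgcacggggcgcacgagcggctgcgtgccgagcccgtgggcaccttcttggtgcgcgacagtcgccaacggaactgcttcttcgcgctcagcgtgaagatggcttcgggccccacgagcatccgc

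Downstream of the stop codon, Socs1 held a control peak of fold 1.64 and −log10 FDR 47.1 (301 nt) and a PTC peak of 2.1 and 15.7 (331 nt), which shared 271 nt. Further into the 3' UTR the control list held a peak of 511 nt (fold 4.04, −log10 FDR 11.6) and the PTC list one of 151 nt (2.22, 2.55) inside it. A 5' UTR peak (121 nt, 1.79, 12.1) was in the control list only. By its strongest peak Socs1 was the second of the 8 genes in the control list by −log10 FDR (79.7) and the last of 7 in the PTC list (15.7). Depth per list is unknown and FDR values are not scaled between lists, so the orders are given as a description. Peaks of Socs1 covered 37.7% of the coding sequence in control and 23.6% in PTC.

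Socs2 (ENSMUSG00000020027), which encodes the inhibitor best known for restraining growth hormone signalling, had the most control peaks of the family, 8, and 7 PTC peaks. The main peak ran from coding sequence into the 3' UTR. In the control list it spanned chr10:95412089-95413107 (minus strand, 1019 nt, fold 6.79, −log10 FDR 36.9), and in the PTC list chr10:95412119-95413558 (1049 nt in 2 blocks, 6.02, 70.1). These 2 peaks shared 989 nt, 97.1% of the control and 94.3% of the PTC peak. Each list also held, on its own line, a peak with the same borders in both (chr10:95412719-95413109, 391 nt, fold 5.54 in control and 5.40 in PTC), which lies almost or wholly inside the main peak. The same stretch of Socs2 is therefore counted 2 times in each list.

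Upstream, a peak across the 5' UTR and the start of the coding sequence measured 180 nt in control (fold 1.86, −log10 FDR 5.42) and 300 nt in PTC (2.14, 14.2). A 3' UTR peak measured 420 nt in control (2.09, 21.6) and 480 nt in PTC (2.98, 30.0), the control peak inside the PTC peak. Far downstream, in the 3' UTR of another annotated transcript of Socs2, lay the peak of highest fold among the members. This PTC peak (chr10:95387821-95388301, 481 nt) had a fold of 27.1, at percentile 99.4 of all PTC peaks, with a −log10 FDR of 9.67. The control list held 2 weak peaks of 181 nt at this place, with folds of 4.67 and 2.74 and −log10 FDR of 2.38 and 1.86. A control peak nearby in a noncoding exon (181 nt, fold 13.5, −log10 FDR 2.70) had no PTC partner.

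Socs3 (ENSMUSG00000053113), whose product restrains interleukin-6 signalling at the receptor chain gp130, held exactly 1 peak in each list. The control peak (chr11:117966198-117968045, minus strand, 1848 nt) had a fold of 5.08 at a −log10 FDR of 43.8. The PTC peak (chr11:117966734-117968075, 1342 nt) had 6.46 and 46.8. They shared 1312 nt, 97.8% of the PTC peak. Both began in the coding sequence, 489 and 519 nt before the last coding base, and they ended in the 3' UTR, 1358 and 822 nt after it.

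Socs4 (ENSMUSG00000048379) and Socs5 (ENSMUSG00000037104), the most closely related pair of the family and linked mainly to growth factor receptor signalling, had peaks over nearly all of their coding sequence. For Socs4 the control peak (chr14:47276931-47291648, plus strand, 2423 nt in 2 blocks) ran from the first base of the gene across the whole coding sequence, with a fold of 6.49 at a −log10 FDR of 62.4. In the PTC list the same stretch was split into a 5' UTR peak of 240 nt (5.72, 27.6), a main peak of 1794 nt (chr14:47289585-47291378, 9.34, 98.7) and a 3' UTR peak of 180 nt (2.37, 2.86). The split accounts for 2 of the 7 PTC peaks of Socs4, against 4 control peaks. The other peaks were in its long 3' UTR, 3 in control with a −log10 FDR of 2.83 to 4.77 and 4 in PTC with 2.51 to 5.73.

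For Socs5 the control peak (chr17:87133700-87135522, plus strand, 1823 nt, fold 11.1, −log10 FDR 46.0) contained the PTC peak (chr17:87133700-87135373, 1674 nt, 8.36, 68.4). Both began at the same base and covered 95.9% of the coding sequence. In the 3' UTR a control peak of 897 nt (4.11, 11.9) faced a PTC peak of 210 nt (2.51, 2.74), and a last pair of 360 and 240 nt shared 61 nt.

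Socs6 (ENSMUSG00000056153), whose product acts on receptor tyrosine kinases, had a wide peak over the coding sequence in both lists. The control peak (chromosome 18, 88868349 to 88870442, minus strand, 2094 nt) had a fold of 8.10 at a −log10 FDR of 31.7. The PTC peak (88868977 to 88870472, 1496 nt) had 21.8 and 49.4, and the fold stood at percentile 98.7 of all PTC peaks. They shared 1466 nt. A weaker pair at the start of the coding sequence had folds of 3.87 and 3.83. Another 2 PTC peaks (folds 2.97 and 4.14) lay on the 3' UTR part of the control peak, the second sharing 1 nt with it. A weak control peak further into the 3' UTR (150 nt, 3.59, −log10 FDR 1.84) had no partner.

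Socs7 (ENSMUSG00000038485), whose product binds adaptor proteins of growth factor and insulin signalling, was the weakest member by FDR, although the fold of its strongest peak, 8.22, was the second highest of the 8 in control. It held 4 short control peaks and no PTC peak. In coding sequence these measured 211 nt (chr11:97362730-97362940, plus strand, fold 8.22, −log10 FDR 4.35) and 121 nt (5.61, 2.54), and in the 3' UTR 240 nt (2.62, 2.67) and 121 nt (2.34, 2.20). None reached a −log10 FDR of 5, and at that threshold Socs7 was in neither list. Its principal transcript held the most GGACT sites of the family, 9, of which 1 lay in a peak. Socs7 is also the only member with its coding sequence spread over many exons, 9, and the exon that holds its last coding base measures 151 nt, against 1620 nt or more in the other members.

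**Figure D2:**
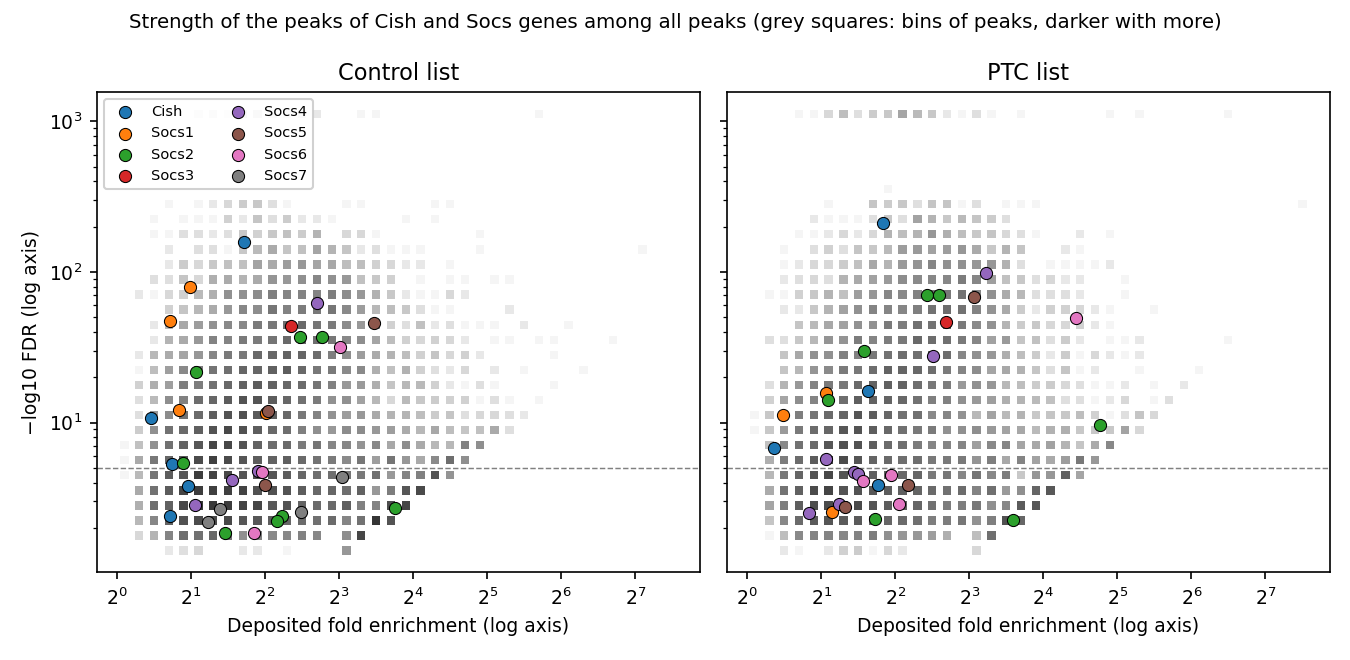
Deposited fold enrichment (x, log axis) against −log10 FDR (y, log axis) of each peak of Cish and Socs1 to Socs7 (coloured points) over all peaks of the same list (grey squares, darker where more peaks fall; FDR values too small to be listed are drawn at the top), with a dashed line at a −log10 FDR of 5. The main Cish peak, at 158 in control and 213 in PTC, is the highest point of the family in both lists. A weak Cish peak is the leftmost point, at a fold of 1.37 in control and 1.28 in PTC. The Socs1 peaks also lie toward the left in both lists, except the control peak at a fold of 4.04.

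Taken over all their peaks, the members were not stronger than the lists. The median fold of the members' peaks was 3.67 in control and 3.31 in PTC, against 3.65 and 3.66 over the lists, and their median −log10 FDR was 5.04 in control and 6.77 in PTC, against 5.47 and 6.61. Of the 32 control peaks 16, and of the 29 PTC peaks 16, had a −log10 FDR of 5 or more, against 53.4% and 59.8% of all peaks. The strongest peak of each member stood higher. Its median −log10 FDR was 44.9 over 8 control members and 68.4 over 7 PTC members, against 11.9 and 13.6 over all genes of each list, where genes carry fewer peaks. By FDR the strongest peak stood at or above percentile 75.5 of the genes of its list for every member but Socs7 in control (22.8) and Socs1 in PTC (53.6).

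The strongest peaks of 5 members were wide. In the control list the strongest peaks of Socs4, Socs6, Socs3, Socs5 and Cish stood at percentiles 98.1, 96.9, 95.4, 95.2 and 93.5 of strongest peaks by width. In the PTC list they stood at 96.4, 93.9, 92.0, 95.7 and 89.1. Socs1, Socs2 and, in control, Socs7 were below percentile 50. For Socs2 this rests on a near tie between lines on the same bases. The line of 391 nt had a −log10 FDR of 37.0 in control and 70.5 in PTC. The main Socs2 peak had 36.9 and 70.1 and measured 1019 and 1049 nt. Its width stood at percentiles 91.9 and 92.4 of all peaks of the lists. Over all genes of each list the median strongest peak measured 419 nt. In 5 members (Socs1, Socs3, Socs4, Socs5 and Socs6) the coding sequence lies in 1 exon, as it does in 7.06% of the protein-coding genes with a control peak and 7.24% of those with a PTC peak. The strongest peak of those single-exon genes had a median width of 712 nt in control and 688 nt in PTC, against 451 and 450 nt for genes with more coding exons. Their peaks covered a median of 76.4% and 70.4% of the coding sequence, against 21.0% and 16.1%. Among the 5 members, Socs4 (all of its coding sequence in both lists), Socs5 (95.9% in both) and Socs6 (92.6% and 87.0%) were above those medians. Socs3 (72.6% and 77.0%) was near them, and Socs1 (37.7% and 23.6%) was below them. The other members had 97.4% and 89.9% (Cish), 81.0% and 96.3% (Socs2), and 19.1% in control (Socs7).

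Peaks crossed the end of the coding sequence in most members. The last coding base lay in a peak in 6 of the 8 members in control and 6 of the 7 in PTC, the same 6 genes in both lists, with Socs1 and Socs7 as exceptions. Over all protein-coding genes with a peak this was so for 55.4% in control and 57.0% in PTC. Among those with the coding sequence in 1 exon it was so for 61.6% and 62.3%. With 8 and 7 members these counts do not set the family apart. By midpoint, 17 of 32 control peaks (53.1%, exact Clopper-Pearson 95% interval 34.7 to 70.9%) and 18 of 29 PTC peaks (62.1%, 42.3 to 79.3%) of the members lay in a 3' UTR. The shares over all peaks of protein-coding genes, 46.1% and 49.7%, fall within these intervals. In coding sequence lay 9 of 32 and 7 of 29 midpoints (28.1% and 24.1%), against 42.1% and 40.9% over all, which the intervals of 13.7 to 46.7% and 10.3 to 43.5% also include. These intervals cover counting error only and treat peaks of 1 gene as independent, which they are not.

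Between the conditions, many peaks of the members overlapped. A PTC peak overlapped 21 of the 32 control peaks of the members (65.6%, exact interval 46.8 to 81.4%), and a control peak overlapped 25 of the 29 PTC peaks (86.2%, 68.3 to 96.1%). Over the whole lists 60.2% of control and 78.8% of PTC peaks were overlapped, within those intervals. With midpoints required to lie within 100 bp the members' shares were 43.8% and 48.3%. No share over all peaks under that rule is given here, so these values do not set the family apart from the lists. The strongest peak of every member listed in both conditions had a partner, but in Socs1 the strongest peak lay in coding sequence in control and in the 3' UTR in PTC. The 11 control peaks without one had a median −log10 FDR of 2.70 and at most 12.1 (the 5' UTR peak of Socs1), against 11.9 for the 21 with one, and 4 of them belong to Socs7. The 4 PTC peaks without one had a median of 3.17 and at most 5.73 (a 3' UTR peak of Socs4).

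Along the principal transcripts, bases covered in both lists made up 82.8% of all covered bases in Cish, 80.2% in Socs2, 69.9% in Socs3, 69.0% in Socs6, 60.9% in Socs4, 59.7% in Socs5 and 46.4% in Socs1. The parts that differed lay mostly in 3' UTRs. In Socs3 91.9% of the 3' UTR was covered by the control peak and 55.7% by the PTC peak. In Socs5 the shares were 59.2% and 22.4%, in Socs1 40.7% and 24.1%, in Cish 71.4% and 57.6%, in Socs6 24.7% and 13.6%, and in Socs4 34.9% and 30.3%. Socs2 was the exception, with 84.6% in control and 87.2% in PTC.

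The share of the 3' UTR in peaks was thus smaller in the PTC list in 6 of the 7 members listed in both conditions, with a median difference of −13.8 percentage points. Of 7465 genes with a peak in both lists and a 3' UTR in a peak of either, 56.2% had a smaller share in the PTC list, with a median difference of −2.94 points. Among these genes 2578 had a larger share and 693 an equal one, while no member was equal. The median control share was 59.2% in the members and 43.2% over these genes, so the drops start from unlike levels. No test was run, and with 7 members the count does not set the family apart. With lists of equal length 6 of 7 members and 52.4% of genes had the smaller share in PTC, and with only the peaks at a −log10 FDR of 5 or more 5 of 7 and 52.6%. In coding sequence the members were divided: the PTC share was smaller in 3 (Cish, Socs1 and Socs6), larger in 2 (Socs2 and Socs3) and equal in Socs4 and Socs5, while 62.1% of all genes had a smaller share. The control list is the longer of the lists and the depth behind each is unknown. How far list length or depth contributes to the 3' UTR values of single genes was not tested.

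**Figure D3:**
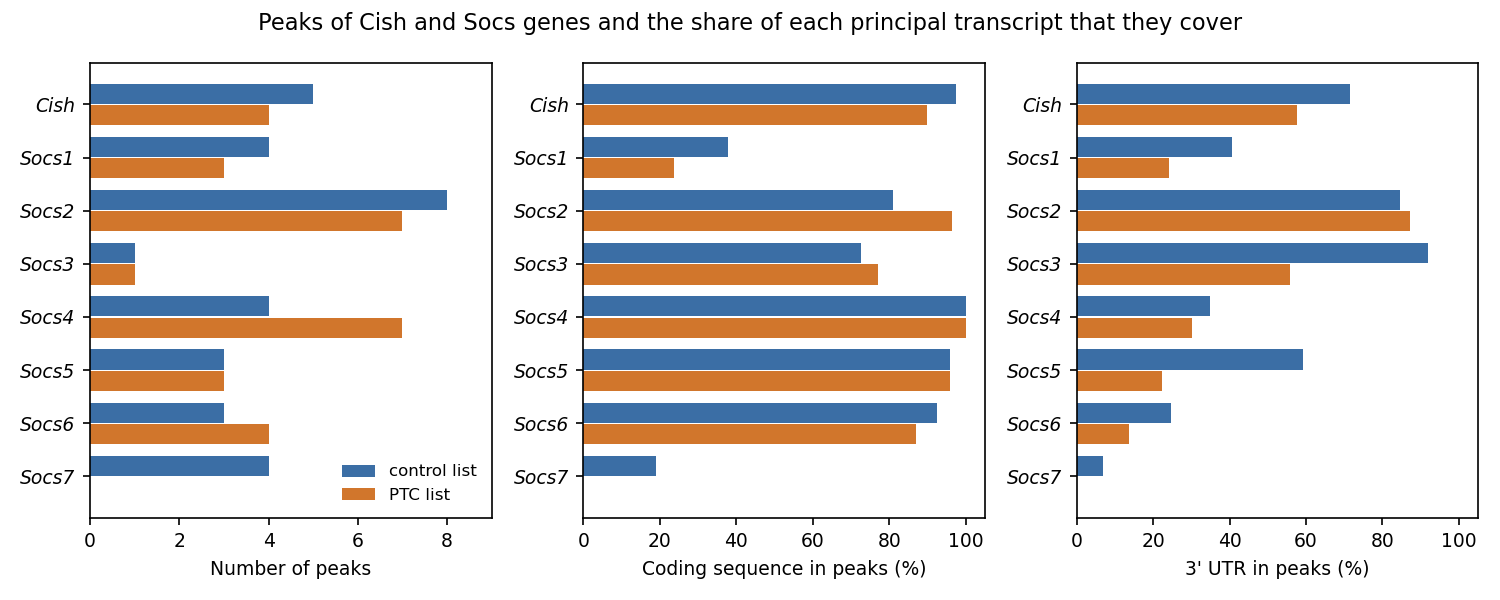
Number of peaks (left), percent of the coding sequence of the principal transcript in peaks (middle) and percent of its 3' UTR in peaks (right) for Cish and Socs1 to Socs7, with control bars in blue and PTC bars in orange, 1 value per list and no replicates. The 3' UTR bars are shorter for PTC in 6 of the 7 genes listed in both conditions, Socs2 being the exception, and Socs7 has no PTC bar.

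Pooled over the members, GGACT sites were denser inside peaks than outside. The 8 principal transcripts held 1.25 GGACT sites per kb in control peaks and 0.523 per kb outside, and 1.2 and 0.664 per kb for the PTC list. The principal transcripts of all protein-coding genes with a peak held 1.27 inside and 0.997 outside control peaks, and 1.36 and 0.985 for PTC. Socs7 has no PTC peak, so its 7015 nt and 9 sites count only as outside in the members' PTC values. The values over all genes leave out genes without a peak in the list. The PTC densities outside peaks are therefore not from like sets. Single members rest on 1 to 9 sites and did not all follow the pooled order. In control the density was lower inside peaks than outside in Socs2 (1.23 and 1.66 per kb) and Socs3 (1.08 and 1.42), and in PTC the 1 site of Socs1 lay outside. The wider DRACH consensus showed little difference, with 21.0 sites per kb in control peaks and 19.9 outside, and 21.6 and 19.7 for PTC. All GGACT sites of Cish, Socs1, Socs4, Socs5 and Socs6 lay in control peaks. Outside the control peaks lay 8 of the 9 sites of Socs7, the 5' UTR site of Socs3 and the 5' UTR site of Socs2, which was in a PTC peak.

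Of the members' peaks 13 of 32 in control (40.6%, exact interval 23.7 to 59.4%) and 9 of 29 in PTC (31.0%, 15.3 to 50.8%) held a GGACT anywhere in their exon blocks. Over all peaks the shares were 34.5% and 37.5%, within those intervals. The main Cish peak held 4 sites in control and 3 in PTC. Control peaks of similar width (0.8 to 1.25 times as wide) held a median of 2, and 81.0% of them held any. The main peaks of Socs5 and Socs6 also held 3 sites in both lists. For Socs5, peaks of similar width held a median of 2, with 84.8% of such control peaks and 82.5% of such PTC peaks holding any. The main Socs4 peak held 1 in both lists, below the median of 2 for peaks of similar width, of which 88.9% in control and 83.3% in PTC held any. At the centre of peaks the members did not stand out. Within 50 nt on either side of the midpoint GGACT was found in 3 of 32 control peaks (9.38%, exact interval 1.98 to 25.0%) and 1 of 29 PTC peaks (3.45%, 0.0873 to 17.8%), against 11.5% and 12.9% of all peaks.

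The 1 site that Socs7 held in a peak, with its A 1572 nt before the last coding base, is shown because that peak was in the control list only.
Socs7 coding, chr11:97362794-97362818, plus strand: tcccgtggctGGACTagaggcgcag

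The pathway that SOCS proteins act on was covered by peaks almost throughout. Of 58 genes in 6 lists (cytokine receptors, Jak kinases, Stat factors, SOCS box partners, other inhibitors, and survival and growth genes induced by Stat factors) 52 had peaks in both lists, 3 in the control list only, 0 in the PTC list alone and 3 in neither. Of the 55 with any peak 52 were thus in both, beside the 79.2% of all listed genes. The 58 genes were chosen with earlier results of these data known, so this count does not set the pathway apart. All 18 cytokine receptors had peaks in both lists. The strongest were Il2ra and Il2rb, the alpha and beta chains of the interleukin-2 receptor, which tied with an FDR too small to print in both lists. Il2ra held 8 control and 5 PTC peaks and Il2rb 3 and 2. Of 4 Jak kinases 3 were in both, led by Jak1 (−log10 FDR 273 in control, an FDR too small to print in PTC), and Jak3, the kinase of the common gamma chain, was in the control list only (2 peaks, at most 5.78).

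Of 7 Stat factors 5 were in both lists. The factors Stat3 (3 peaks, at most 12.4) and Stat5a (1 peak, 5.14) were in the control list only, and Stat5b was in both with a −log10 FDR of 8.45 and 5.65. Of the 8 genes for SOCS box partners 7 were in both. Ube2f, a neddylation enzyme, was the strongest (46.4 and 63.8), Cul5, the cullin of the SOCS ubiquitin ligase, held 6 control and 4 PTC peaks (36.8 and 55.3), and Elob had no peak. Of 13 other inhibitors 12 were in both, with Cblb strongest in control (116) and Pias1 strongest in PTC (157), and Pias3 had none. Of 8 survival and growth genes 7 were in both, led by Myc with FDRs below what the lists can print, and Ccnd3 had none.

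Socs1 to Socs6 were each set beside the 52 pathway genes in both lists by the percentiles of the strongest peak among the genes of each list (FDR and fold in each list, 4 values). The smaller the sum of the 4 differences, the more alike the 4 values. A nearest gene always exists, and no sums against other genes of the lists are given. The sums therefore do not show a likeness to the pathway. The values of Socs2 rest on its line of 391 nt, nearly tied with its main peak. Socs5 was nearest to Pias2 (summed difference 10.2 percentile points), Socs4 to Il10ra (11.3), Socs6 to Ifnar2 (24.1), Socs3 to Cul5 (26.8) and Socs2 to Ube2f (29.4). Socs1 was the least matched: its nearest gene, Ptprc, differed by 49.1 points, with FDR percentiles of 95.9 and 96.2 in the control and PTC list where Socs1 had 93.8 and 53.6.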

How the data were processed

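Methylated RNA was immunoprecipitated and sequenced beside input in 8 samples (2 per group) of control and PTC-treated T cells. BWA 0.7.12, MACS2 2.1.0 and GRCm39 are named, without roles, per the submitters' processing notes. The caller, its threshold, pooling and strandedness are not stated in the labels or headers. Each peak's fold enrichment (a linear ratio), p-value and log10 p and log10 FDR scores were deposited by the authors. They describe peaks within a list. Values of both lists are set side by side as a description, and no difference between the lists was tested. The percent of reads in peaks is from the authors' deposited summary. No counts were used and depth is unknown, so the count test planned for counts per sample was not run.

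Of control peaks 99.9%, and of PTC peaks 99.8%, lay inside the same gene in GENCODE M21 (GRCm38), and 86.8% of 19445 junctions within peaks equalled its introns, so coordinates are read as GRCm38. Positions count from 1. The principal transcript was chosen by APPRIS level, the basic and CCDS tags and length. The stop codon counts with the 3' UTR. Midpoints were assigned to coding sequence, 3' UTR, 5' UTR, then noncoding exon. Peaks overlapped when exon blocks on 1 strand shared at least 1 bp (bedtools 2.31.1). Functions were tested on simulated data.

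The members and gene lists were chosen with earlier results of these data known. Named are all members and, per pathway list, the strongest gene of each peak list, genes in 1 list or none, and the genes nearest to a member. The values of 1 gene that this rule names are not reported here. Alternatives changed the peak filter, the overlap rule, the region rule and the motif window.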

Additional observations from a re-analysis of the deposited data

How the results depend on the processing

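No paired analysis was possible because the peak lists hold no values per sample, and no replicate could be left out. Of 34 recomputed main values 23 kept to their exact 95% interval (shares) or to 1.5 times (counts), and 11 moved. Of 48 peak counts of single genes 27 stayed and 21 moved. Keeping only peaks at a −log10 FDR of 5 or more, the members held 16 control and 16 PTC peaks. Of these, 62.5% in control and 43.8% in PTC held GGACT. No share over all peaks at this filter is given here, so these values do not show a motif excess in the family. With a fold enrichment of at least 4 the members held 13 and 11 peaks. At that setting 5 members (Socs2 to Socs6) were in both lists, Cish was in neither, and 21 pathway genes were in both. These filters remove peaks by construction. Overlap was 43.8% of control and 48.3% of PTC peaks of the members with midpoints within 100 bp. It was 51.7% of their PTC peaks with 50% of each peak shared. Both rules are stricter by construction, and no shares over all peaks are given beside them. GGACT within 50 nt of the midpoint, a shorter sequence, was in 9.38% and 3.45%. The comparison between the lists of the share of the 3' UTR covered by peaks was not among the planned results. Its alternative settings were chosen after seeing the data. Since each condition is 1 list, a gene listed in 1 condition alone could not be checked in replicates.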

Other observations

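Some peaks of the family lay outside the exons of the principal transcripts. In the control list these were 4 of the 8 Socs2 peaks and 3 of the 5 Cish peaks, and in the PTC list 2 of 7 and 2 of 4. None of the peaks of the other 6 genes did so.

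Socs2 was not alone in having the same bases on 2 lines. The control list held 206 pairs of overlapping peaks of 1 gene and strand, in 153 genes, and the PTC list 185 pairs in 131 genes. In the family the Socs2 pair, which shares 389 nt in control and 391 nt in PTC, was the only one. Counts of peaks per gene include both lines of such a pair.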
